A study of Mus musculus with 14 samples.

Results

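The genes described here are the autophagy machinery, a list of 39 mouse gene names that cover the start of autophagy, the conjugation enzymes, the cargo receptors and the regulators. Members were taken by gene name, from a list drawn up with earlier results of these data known. Vps34 is a synonym of Pik3c3, so the list holds 38 genes, all of which were found among the 55416 genes of each deposited table. Male C57BL/6 mice (C57BL/6NCrlOri) aged 6 to 8 weeks gave lung and gastrocnemius (a muscle of the calf) for bulk RNA sequencing. The protocols describe injecting cultured KrasIKKaL cells into the trachea, and the series concerns cachexia, the wasting that accompanies cancer, and adverse immune events in muscle. Titles sort the 14 libraries into what is read here as tumour-bearing lung (TB, 5 libraries), control lung (CON, 3), tumour-bearing gastrocnemius (3) and control gastrocnemius (3). All groups share the strain. No transgene or engineered allele of the mice is named, the injected cells are 1 named line, and the sources used here do not give what the CON mice received. Whether libraries within a group stem from different animals is not in the labels, so each p-value covers only the spread among these libraries, and that spread may be technical. The labels used here also do not say whether a lung and a muscle library come from the same mouse. Tests across the tissues took all libraries as independent, so any such pairing is ignored in their p-values.

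Autophagy encloses cytoplasm, protein aggregates or organelles in a double membrane, the autophagosome, which then fuses with the lysosome for degradation of its contents. The ULK kinase complex starts the process, a lipid kinase complex marks the forming membrane, and a pair of ubiquitin-like conjugation systems attaches ATG8 proteins (the LC3 and GABARAP families) to it, where cargo receptors dock. In skeletal muscle the pathway, together with the proteasome, is known for protein breakdown during wasting. In lung it is active in epithelial cells and macrophages, and tumour cells of many kinds rely on it when nutrients are short.

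Total counts ran from 47947363 to 61087315 in lung and from 32476194 to 44169410 in muscle, and all 38 genes passed the filter on low counts in each comparison. Levels below are counts-per-million (CPM) on TMM-scaled library sizes unless TPM (a level corrected for transcript length) is named. Differences are log2 fold changes with their standard error (SE). Adjusted p-values come from edgeR's two-sided quasi-likelihood test with Benjamini-Hochberg adjustment over all genes tested, and a gene passed at 0.05. The tissue labels matched their markers: Sftpc, Sftpa1 and Slc34a2 of alveolar type 2 cells were listed at 0 in all muscle libraries, and Myh4, a fast muscle myosin, was listed at 0 in all lung libraries. Not all markers were at 0. The 7 alveolar type 2 markers summed to 7.28 to 9.01 CPM in muscle. The 10 skeletal muscle markers summed to 9.86 to 24.1 CPM in TB lung and 28.2 to 87.4 CPM in CON lung. Of 7 tested in lung, 5 fell and 2 rose. Summed marker levels, here and below, are on unscaled library sizes.

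In gastrocnemius, 15 of the 38 genes rose in TB libraries and 1, Atg10, fell. Over all 14373 genes tested, 8.53% were called higher, 6.75% lower and 15.3% either way. The genes that rose came from all 8 roles and included the ATG8 genes Map1lc3b (4.54-fold) and Gabarapl1 (4.34-fold), the mitophagy receptor Bnip3 (4.74-fold) and the cargo receptor Sqstm1 (3.09-fold). The median log2 fold change of the 38 genes was 0.95, against -0.03 for all genes tested. In 24 genes every TB library lay above every CON library, in 1 every TB library lay below, and in 13 the groups overlapped. Over all genes, 21.1% had TB above CON without overlap and 22% had TB below, 43.1% in all. The 22 genes that did not pass had log2 fold changes between -0.78 and 1.33, 18 of them positive, with adjusted p from 0.0545 to 0.965.

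Within each muscle group the libraries were not alike. TB 1 held the highest value of its group for 24 genes and TB 2 the lowest for 26, while CON 1 held the highest for 25 and CON 3 the lowest for 26. The muscle calls depended on single libraries. Without CON 1, CON 2 or CON 3, the number of genes called higher was 1, 0 and 0 and none was called lower; without TB 1, TB 2 or TB 3 the number called higher was 11, 22 and 5. The median lay between 0.69 and 1.11 in these 6 fits. With upper-quartile scaling, where all genes had a median log2 fold change of -0.25 and 760 were called higher and 1079 lower (1226 and 970 with TMM), the test kept 8 of the 15 genes as higher: Bnip3, Bnip3l, Calcoco1, Gabarapl1, Map1lc3b, Optn, Sqstm1 and Uvrag. Limma on log2(TPM + 1), which changes both the unit and the test, kept Map1lc3b alone, with 157 higher and 258 lower of all genes. The mitochondrial share of counts was 17.6, 19.0 and 24.0% in TB muscle, against 16.2, 26.7 and 34.1% in CON muscle. With mitochondrial genes left out, 15 genes rose and 1 fell, as before. That fit only drops these genes and rescales, so it cannot show whether the libraries differ in other ways that go with this share. The summed level of 10 skeletal muscle markers was 86855 to 117333 CPM in TB and 82140 to 136447 CPM in CON muscle, none of them at 0. Of these 10 markers 1 rose and 9 did not pass, with log2 fold changes from -1.51 to 1.27. Fibroblast markers were lower in TB muscle (6 of 8 fell, summed 400.2 to 779 CPM in TB against 990.2 to 1334 CPM in CON). The 4 neutrophil markers tested were higher (7 markers, summed 5.81 to 7.7 CPM in TB against 1.08 to 1.63 CPM in CON, with Ly6g at 0 in both groups and Cxcr2 at 0 in CON). Both B and plasma cell markers tested fell (6 markers, summed 0.996 to 5.94 CPM in TB against 38.5 to 64.0 CPM in CON), as did the 1 T and NK cell marker tested (7 markers, summed 0.113 to 0.286 CPM in TB against 1.48 to 2.33 CPM in CON, with Ncr1 at 0 in both groups and Cd8a at 0 in TB). None of the 5 erythroid markers tested passed; their list of 6 summed to 942, 519 and 6303 CPM in TB 1 to 3, against 490 to 541 CPM in CON, with TB 3 far above the other libraries. Of the endothelial markers 1 of 7 fell, and of the macrophage and monocyte markers 1 of 9 rose and 1 fell. Among the alveolar type 1 markers, 4 were tested in muscle and 1 fell. The part of these markers in the autophagy values was not tested.

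In lung, 11 of the 38 genes rose in TB libraries, 10 fell and 17 did not pass. Over all 19300 genes tested, 30.4% were called higher, 29.3% lower and 59.7% either way, so the share of autophagy genes called was near that of all genes. The median log2 fold change was 0.14, against 0.07 for all genes tested. Those that rose included Bnip3 (6.88-fold), Atg101 of the ULK complex (2.82-fold), Wipi1 (2.36-fold) and Optn (2.33-fold). Those that fell included Pink1 (CON over TB 2.74-fold), the regulator Tfeb (2.52-fold), Gabarapl1 (1.95-fold) and Ulk2 (1.95-fold). TB lay above CON without overlap in 11 genes and below in 11, where 30.9% and 32.1% of all genes (63% together) did so, and 16 genes overlapped. Log2 fold changes of the 17 genes that did not pass lay between -0.54 and 0.46 (adjusted p 0.055 to 0.914).

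The tumour-bearing lungs also differed in cell type markers. All 7 alveolar type 2 markers fell (summed 126 to 1114 CPM in TB against 23834 to 26001 CPM in CON), as did all 6 alveolar type 1 markers (63.3 to 431 CPM in TB against 3874 to 4498 CPM in CON) and all 7 endothelial markers (135 to 188 CPM in TB against 3154 to 3319 CPM in CON). The 7 epithelial and proliferation markers all rose, to a sum of 10178 to 15849 CPM in TB against 1373 to 1402 CPM in CON. All 6 erythroid markers fell (125 to 1470 CPM in TB against 5767 to 7878 CPM in CON), and so did 5 of 6 B and plasma cell markers (4.65 to 86.6 CPM in TB against 225 to 256 CPM in CON). Of 5 airway epithelium markers 4 fell and 1 rose (136 to 2056 CPM in TB against 24140 to 28067 CPM in CON). Of 9 macrophage and monocyte markers 3 fell, 1 rose and 5 did not pass, with a median log2 fold change of 0.0035. Their sum, which the most abundant genes dominate, was 339 to 937 CPM in TB against 5298 to 5536 CPM in CON. In addition 3 of 8 fibroblast markers and 2 of 7 T and NK cell markers fell, and of 7 neutrophil markers 2 rose and 2 fell. No gene of these 11 lists was at 0 in all libraries of a lung group. The part of these markers in the autophagy values was not tested. In bulk RNA, fewer cells of a type and less RNA per cell cannot be told apart. With the same test, DESeq2 size factors or upper-quartile scaling each gave 8 of the 38 genes higher and 12 lower in lung. Limma on log2(TPM + 1), with another unit and another test at once, called 2 higher and 14 lower, with a median of -0.37 for them and -0.23 for all genes, and split all genes into 3594 higher and 7994 lower (5862 and 5651 with TMM). Leaving out CON 1, CON 2 or CON 3 gave 7, 6 and 6 genes higher and 8, 9 and 9 lower.

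**Figure D1:**
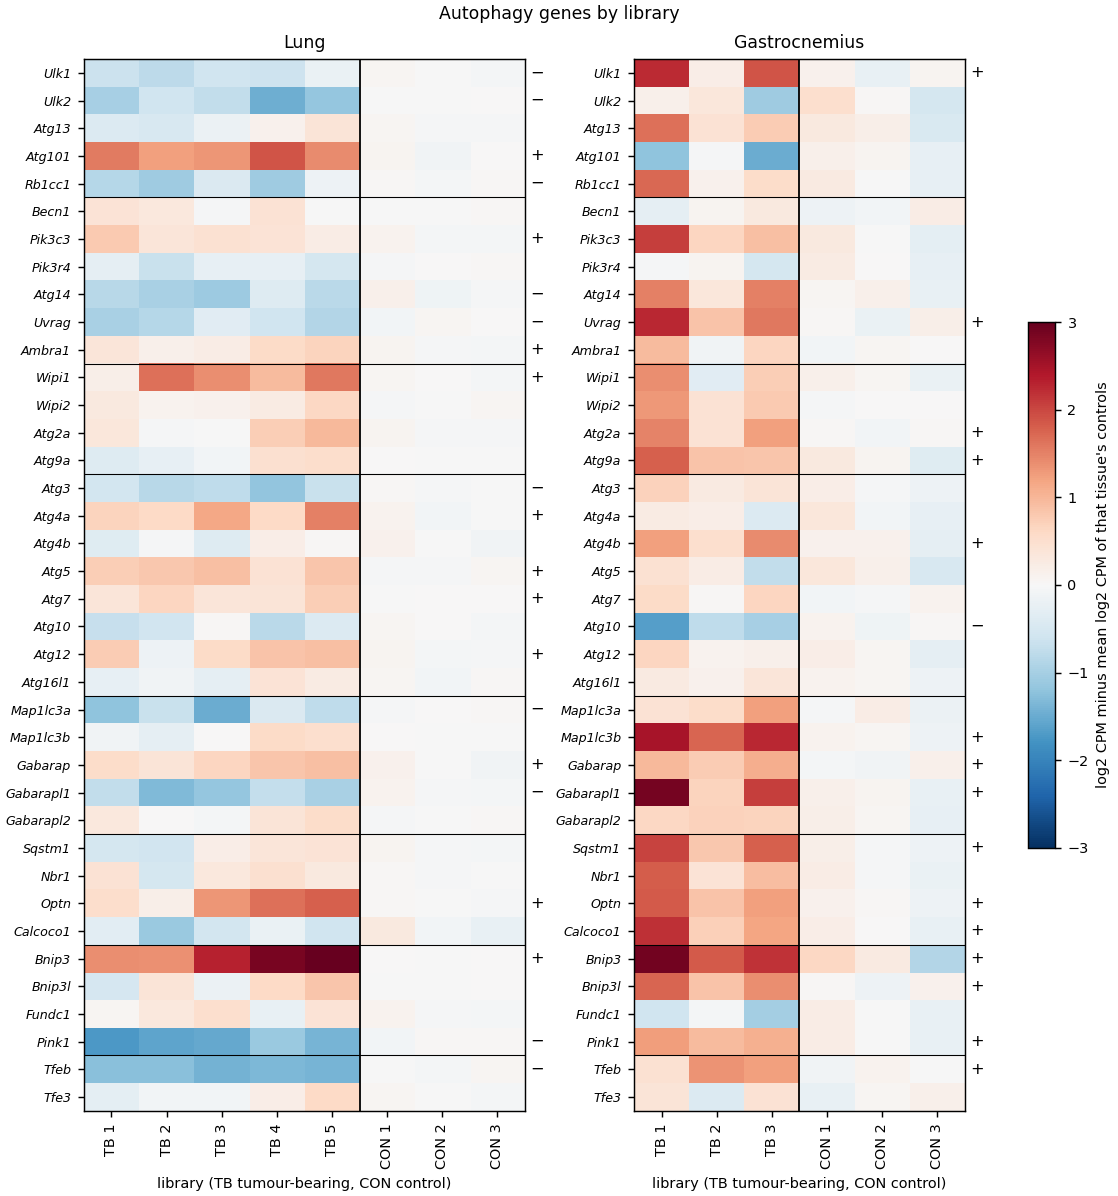
Each cell gives log2 CPM of 1 gene in 1 library minus the mean log2 CPM of that tissue's 3 CON libraries; red is higher, blue is lower, and black lines part the roles in the order of initiation complex, lipid kinase complex, phagophore growth, conjugation enzymes, ATG8 family, ubiquitin-linked receptors, mitophagy genes and transcription factors. A plus or minus at the right marks a gene that passed the threshold upward or downward: 11 and 10 genes in lung, 15 and 1 in gastrocnemius.

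Among the regulators, TFEB is a transcription factor that switches on lysosomal and autophagy genes, and TFE3 is its close relative. In TB lungs 1 to 5, Tfeb stood at 8.35, 8.37, 7.46, 7.85 and 7.51 CPM, against 19.7, 19.3 and 20.8 CPM in the CON lungs. All 5 TB values lay below all 3 CON values, with little spread in either group (log2 fold change -1.33, SE 0.16, adjusted p = 0.000114). In gastrocnemius the order was the other way: 68.9, 128 and 118 CPM in TB libraries against 46.7, 54.1 and 49.3 CPM in CON libraries, TB 1 being nearest to the controls (log2 fold change 1.07, SE 0.30, adjusted p = 0.0435). The muscle call was lost without any 1 of the 3 CON libraries, without TB 2 or without TB 3. The log2 fold change of TB over CON for Tfeb differed between lung and muscle by -2.41 (SE 0.29, adjusted p = 3.19e-05 for the interaction). The part of the cell type markers in this difference was not tested. The interaction fit shares 1 estimate of spread per gene between the tissues, though muscle libraries varied more than CON lungs. Interaction p-values, here and below, may therefore understate the spread in muscle. Tfe3 passed in neither tissue, with log2 fold changes of 0.10 in lung and 0.18 in muscle.

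TFEB is known to bind CACGTG, above all within a longer palindrome named the CLEAR element, so the start regions of the autophagy genes were searched for both, and also for the forkhead motif GTAAACA and the cyclic AMP response element TGACGTCA, each on both strands. RefSeq windows (GRCm38.p6) that reach 250 bases before to 50 after a gene's start were at hand for 31 of the 38 genes, 36 windows in all. CACGTG stood in 5 of them, or 13.9%, against 7.15% of all 32851 windows; the genes were Atg3, Atg5, Atg7, Atg14 and Bnip3. The CLEAR element, which contains CACGTG, and GTAAACA were in none, against 0.326% and 3.65% of all windows. TGACGTCA was in 1 window, that of Atg5, or 2.78%, against 1.79% of all. A match describes letters only. The windows of Atg7, Bnip3 and Atg3 are shown around the motif, in capitals, since these genes hold it farthest from the start and differ in what they did in TB lung: Atg7 and Bnip3 rose, Atg3 fell. Each stretch reads along the gene's strand.
Atg7, chr6:114670934-114670999, plus strand, motif 132 bases before the start: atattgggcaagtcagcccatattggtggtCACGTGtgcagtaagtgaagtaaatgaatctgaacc
Bnip3, chr7:138909579-138909644, minus strand, motif 108 bases before the start: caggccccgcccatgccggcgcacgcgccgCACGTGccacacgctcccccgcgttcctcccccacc
Atg3, chr16:45158705-45158788, plus strand, motifs 94 and 71 bases before the start: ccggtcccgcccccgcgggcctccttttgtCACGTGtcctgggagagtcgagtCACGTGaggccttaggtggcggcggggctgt

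The initiation complex joins the kinases ULK1 and ULK2 with ATG13, ATG101 and the scaffold FIP200, the product of Rb1cc1. In TB lung 3 of its 5 genes fell and 1 rose, and in TB muscle 1 rose and 4 did not pass. Among all genes tested, 29.3% were called lower and 30.4% higher in lung, and 8.53% higher in muscle. Ulk1 had 39.4, 35.7, 40.3, 39.8 and 53.0 CPM in TB lungs 1 to 5, against 63.8, 60.9 and 59.1 CPM in CON lungs. All TB lungs were lower and TB 5 stood apart from the other 4 (log2 fold change -0.56, SE 0.15, adjusted p = 0.0115). In muscle Ulk1 had 142, 34.6 and 111 CPM in TB against 33.1, 25.9 and 31.7 CPM in CON, so TB 2 lay just above the highest control while TB 1 and TB 3 lay far above (log2 fold change 1.66, SE 0.46, adjusted p = 0.0435). The muscle call was lost without any 1 of the CON libraries, TB 1 or TB 3 and with upper-quartile scaling. The interaction for Ulk1 was -2.20 (SE 0.46, adjusted p = 0.00212).

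Ulk2 had 36.0, 46.9, 42.8, 25.9 and 31.9 CPM in TB lungs, against 71.2, 71.4 and 72.0 CPM in CON lungs. The CON values nearly coincided and lay above every TB value (log2 fold change -0.96, SE 0.19, adjusted p = 0.00236). Atg101, which stabilises ATG13, moved opposite to Ulk1, Ulk2 and Rb1cc1. It had 50.2, 40.0, 42.7, 63.6 and 45.7 CPM in TB lungs, against 18.2, 15.9 and 17.4 CPM in CON lungs. Each TB lung held more than 2 times the level of any CON lung (log2 fold change 1.49, SE 0.19, adjusted p = 0.000169). In muscle Atg101 did not pass, at 6.99 to 19.1 CPM in TB against 16.7 to 21.9 CPM in CON (log2 fold change -0.78), and the interaction of 2.25 (SE 0.46, adjusted p = 0.00172) was the only one among the 38 genes that passed as higher in lung. Rb1cc1 fell in lung by 0.67 on the log2 scale (adjusted p = 0.028), at 45.1 to 85.0 CPM in TB against 90.8 to 96.3 CPM in CON, a call that was lost without any 1 of the CON lungs, TB 1 or TB 4.

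The lipid kinase complex builds on VPS34, the product of Pik3c3, with its partners Beclin 1 (Becn1) and VPS15 (Pik3r4). ATG14 and UVRAG bind Beclin 1 in separate complexes, and AMBRA1 is a regulator of Beclin 1. Becn1 passed in neither tissue. It had 115, 108, 85.4, 118 and 85.9 CPM in TB lungs against 86.2, 86.4 and 88.9 CPM in CON lungs, and 32.5, 41.6 and 47.7 CPM in TB muscle against 35.4, 36.8 and 45.8 CPM in CON muscle. The groups overlapped in both tissues, with log2 fold changes of 0.23 (SE 0.16, adjusted p = 0.223) in lung and 0.05 (SE 0.26, adjusted p = 0.913) in muscle.

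Uvrag fell in TB lung and rose in TB muscle. It had 26.9, 29.4, 41.7, 34.9 and 28.9 CPM in TB lungs, against 50.4, 55.5 and 53.5 CPM in CON lungs, with no overlap (log2 fold change -0.72, SE 0.17, adjusted p = 0.00568). In muscle it had 31.0, 11.5 and 19.1 CPM in TB against 6.56, 5.58 and 7.18 CPM in CON, again with no overlap and with TB 1 the highest (log2 fold change 1.67, SE 0.37, adjusted p = 0.0239, lost without any 1 of the CON libraries). The interaction was -2.38 (SE 0.39, adjusted p = 0.000347). Atg14 had 10.9, 9.78, 9.05, 14.8 and 11.0 CPM in TB lungs, against 21.3, 17.7 and 18.9 CPM in CON lungs, all TB values being lower (log2 fold change -0.80, SE 0.20, adjusted p = 0.00774). In TB muscle Atg14 had a log2 fold change of 1.20 that did not pass (adjusted p = 0.0545), and the interaction was -1.98 (adjusted p = 0.00153). Pik3c3 and Ambra1 rose in lung by 0.45 and 0.41 on the log2 scale (adjusted p = 0.038 and 0.0498), calls that were lost in 7 and 10 of 11 alternative fits, with log2 fold changes of 0.00 or below on the TPM scale.

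Of the 4 genes of phagophore growth, WIPI1 and WIPI2 read the lipid mark, ATG2A moves lipids to the growing membrane and ATG9A is its membrane-spanning partner. Atg2a and Atg9a rose in TB muscle, at 19.4 to 40.9 CPM in TB against 13.8 to 14.8 CPM in CON for Atg2a, and at 86.9 to 169 CPM in TB against 37.6 to 59.2 CPM in CON for Atg9a. Their log2 fold changes were 1.12 and 1.21 (adjusted p = 0.0443 and 0.0453), and both calls were lost without any 1 of the CON libraries, TB 1 or TB 3. The Ankzf1 gene overlaps Atg9a on the opposite strand. Neither gene passed in lung, where Wipi1 rose. Wipi1 had 33.6, 94.5, 78.4, 57.2 and 89.3 CPM in TB lungs, against 31.1, 29.9 and 28.5 CPM in CON lungs. TB 1 lay close to the controls and the other 4 TB lungs were well above them (log2 fold change 1.24, SE 0.32, adjusted p = 0.00823); on the TPM scale Wipi1 did not pass.

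The conjugation enzymes join ATG12 to ATG5 and ATG8 proteins to the membrane lipid phosphatidylethanolamine. ATG7 is the activating enzyme of both systems, ATG3 and ATG10 are the transfer enzymes, ATG4A and ATG4B are proteases that trim ATG8 proteins, and ATG16L1 carries the ATG12-ATG5 pair to the membrane. Of the 8 genes, TB lung had 4 that rose and 1 that fell, and TB muscle had 1 of each. Among all genes tested, 30.4% were called higher and 29.3% lower in lung, and 8.53% and 6.75% in muscle. Atg5 had 39.3, 41.3, 44.6, 31.9 and 42.4 CPM in TB lungs, against 23.3, 23.3 and 24.6 CPM in CON lungs, all TB values being higher (log2 fold change 0.75, SE 0.15, adjusted p = 0.00259). Atg7 had 49.7, 60.2, 50.01, 50.6 and 64.3 CPM in TB lungs, against 38.4, 38.8 and 38.7 CPM in CON lungs (log2 fold change 0.51, SE 0.14, adjusted p = 0.013, lost without CON 2 or CON 3). The groups did not overlap for Atg7 either. Atg4a and Atg12, the ubiquitin-like partner of ATG5, rose by 0.95 and 0.63 (adjusted p = 0.00921 and 0.0416); Atg12 overlapped between groups and its call was lost in 8 of 11 alternative fits. On the TPM scale none of these 4 genes passed.

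Atg3 did the reverse in lung. It had 33.1, 27.4, 28.8, 21.3 and 31.0 CPM in TB lungs, against 50.3, 48.0 and 48.2 CPM in CON lungs, every TB value being lower (log2 fold change -0.79, SE 0.16, adjusted p = 0.00275). In muscle Atg3 had a log2 fold change of 0.46 that did not pass, and its interaction was -1.24 (SE 0.27, adjusted p = 0.00308). Atg7 in muscle had 16.7, 11.5 and 17.5 CPM in TB against 10.7, 10.9 and 12.2 CPM in CON, groups that overlapped (log2 fold change 0.43, SE 0.27, adjusted p = 0.266). Atg4b rose in TB muscle, at 15.5 to 29.3 CPM in TB against 9.09 to 12.1 CPM in CON, and Atg10 fell, at 2.37 to 4.37 CPM in TB against 6.8 to 7.93 CPM in CON. Their log2 fold changes were 1.08 and -1.09 (adjusted p = 0.0465 and 0.0469), and both calls were lost without any 1 of the CON libraries, TB 1 or TB 3. On the log2(TPM + 0.1) scale the value for Atg4b was 1.73, where it did not pass.

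The ATG8 family is the part of the machinery that coats the autophagosome and holds cargo receptors; LC3A and LC3B are encoded by Map1lc3a and Map1lc3b, and the GABARAP branch by Gabarap, Gabarapl1 and Gabarapl2. In muscle, Map1lc3b had 523, 315 and 448 CPM in TB libraries against 101, 97.2 and 85.0 CPM in CON libraries. The lowest TB value was over 3 times the highest CON value (log2 fold change 2.18, SE 0.30, adjusted p = 0.00715), the smallest adjusted p of the 38 genes in muscle. It passed in all 11 alternative fits and in 4 of the 6 that left out a library, the exceptions being those without CON 2 or CON 3 (adjusted p up to 0.0541). Map1lc3b overlaps Zcchc14 on the opposite strand, whose own log2 fold changes were 1.11 in muscle (adjusted p = 0.0782) and -0.86 in lung (adjusted p = 0.000794). Zcchc14 was at 6.97 to 20.8 CPM in TB muscle against 5.66 to 7.16 CPM in CON muscle. In lung it was at 48.6 to 67.8 CPM in TB against 99.9 to 116 CPM in CON. The strand setting of the counting is not given, so reads of the pair may not be told apart. In lung, Map1lc3b had 206, 185, 223, 329 and 314 CPM in TB libraries against 224, 219.9 and 222 CPM in CON libraries. TB 4 and TB 5 lay above the controls and TB 1 and TB 2 below (log2 fold change 0.18, SE 0.22, adjusted p = 0.504). The interaction was -2.0 (SE 0.34, adjusted p = 0.000468).

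Gabarapl1 moved in opposite directions. It had 100.3, 67.5, 75.2, 102 and 85.7 CPM in TB lungs, against 179.5, 165 and 160.2 CPM in CON lungs, all TB values being lower (log2 fold change -0.97, SE 0.17, adjusted p = 0.000946). In muscle it had 223, 48.6 and 127 CPM in TB against 33.9, 31.9 and 25.9 CPM in CON. The 3 TB libraries spread widely and all lay above the controls (log2 fold change 2.12, SE 0.49, adjusted p = 0.0261, lost without any 1 of the CON libraries or TB 3). Its interaction of -3.07 (SE 0.50, adjusted p = 0.00033) was the largest in size among the 38 genes.

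Gabarap rose in both tissues. It had 349, 312, 371, 423 and 444 CPM in TB lungs against 261, 234 and 219 CPM in CON lungs (log2 fold change 0.67, SE 0.17, adjusted p = 0.00743; on log2(TPM + 1) it did not pass). In muscle it had 442, 384 and 481 CPM in TB against 218, 208 and 251 CPM in CON (log2 fold change 0.95, SE 0.26, adjusted p = 0.0424, lost without any 1 of the CON libraries or TB 3). Groups did not overlap in either tissue. Map1lc3a fell in lung by 0.86 on the log2 scale (adjusted p = 0.00964), at 27.5 to 57.6 CPM in TB against 76.0 to 78.9 CPM in CON. It did not pass in muscle (log2 fold change 0.77), and its interaction was -1.63 (adjusted p = 0.00345). Gabarapl2 passed in neither tissue.

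**Figure D2:**
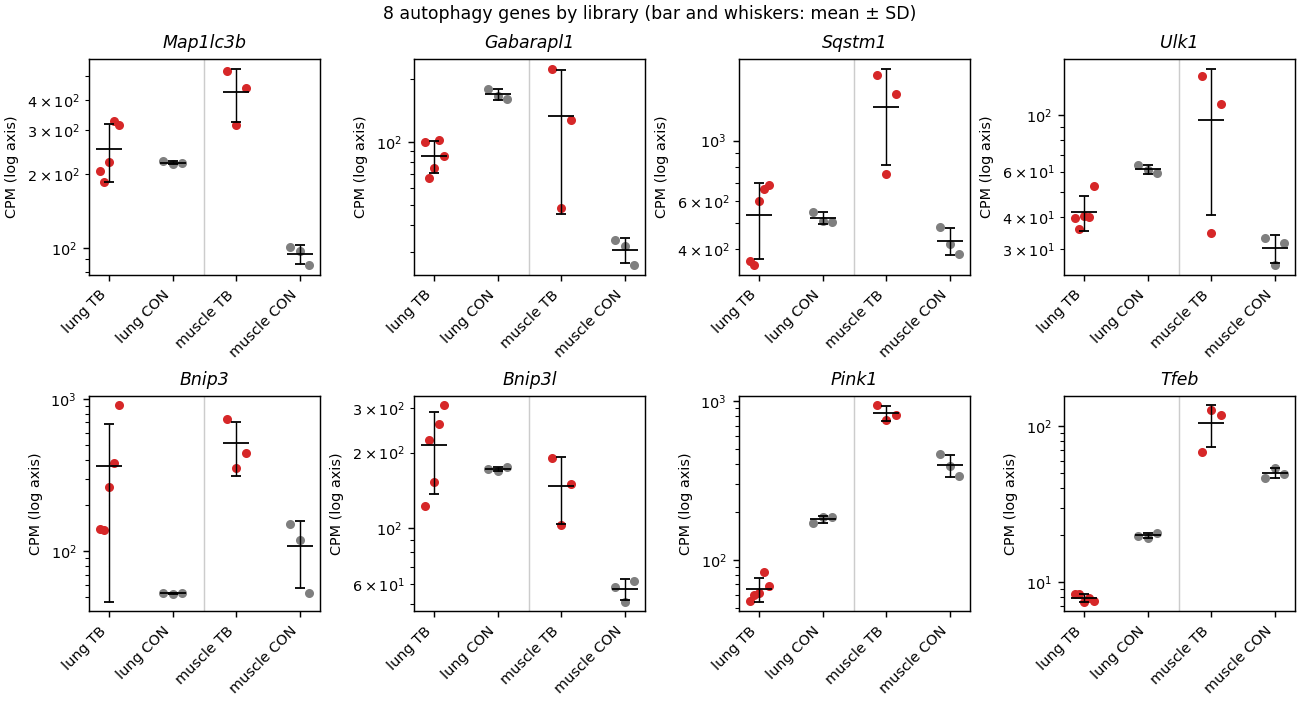
CPM on a log axis of 8 genes, 1 point per library, with the mean and SD of each group as a bar and whiskers. Map1lc3b and Sqstm1 overlap between TB and CON lung but not in muscle, Gabarapl1, Ulk1, Pink1 and Tfeb are lower in TB lung and higher in TB muscle, and Bnip3 is higher in both tissues.

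Since shares within a family do not depend on library scaling, the makeup of the ATG8 family was taken from TPM. Map1lc3b made up 20.4 ± 4.23% of the family's TPM in TB muscle and 8.68 ± 1.02% in CON muscle (SD, n = 3 each), ranges that did not overlap. Gabarapl1 made up 6.95 ± 1.1% in TB lung (SD, n = 5) and 16.5 ± 0.17% in CON lung (SD, n = 3), and Map1lc3a 6.86 ± 1.77% and 15.1 ± 1.16% in the same groups, also without overlap. The share of Gabarap was 59.0 ± 2.59% in TB lung and 43.9 ± 1.99% in CON lung. Map1lc3a was a larger part of the family in muscle, at 28.2 ± 6.61% in TB and 36.5 ± 5.08% in CON, than in lung. The family summed to 812 ± 98.9 TPM in TB lung and 918 ± 69.0 TPM in CON lung, and to 924 ± 258 TPM in TB muscle and 410.02 ± 146 TPM in CON muscle. Unlike the shares, these sums depend on what else a library holds. In libraries 1 to 3 they were 1207, 861 and 703 TPM in TB muscle and 563, 395 and 272 TPM in CON muscle. Within each muscle group the sum was lower where the mitochondrial share of counts was higher. No test was made on these shares and sums.

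**Figure D3:**
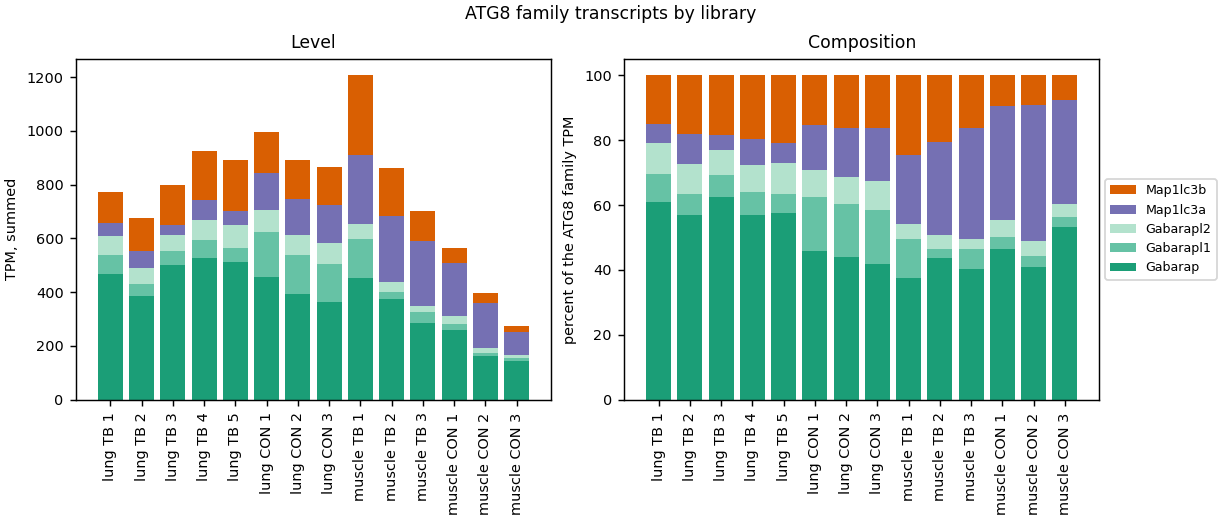
Stacked bars give TPM (left) and percent of the family's TPM (right) of the 5 ATG8 genes in each of the 14 libraries. The Map1lc3b segment covers 16.1 to 24.6% in TB muscle and 7.54 to 9.49% in CON muscle, and the Gabarapl1 segment 5.81 to 8.76% in TB lung and 16.3 to 16.6% in CON lung.

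Cargo receptors bind ubiquitin-tagged or other cargo with one end and ATG8 proteins with the other. In TB muscle 3 of the 4 receptors rose, namely Sqstm1, which encodes p62, Optn (optineurin) and Calcoco1. Among all genes tested in muscle, 8.53% were called higher. Sqstm1 had 1736, 753 and 1484 CPM in TB muscle against 482, 419 and 384 CPM in CON muscle. TB 2 was the lowest TB library and still lay above all controls (log2 fold change 1.63, SE 0.36, adjusted p = 0.0241). Optn had 132, 67.2 and 87.7 CPM in TB muscle against 40.6, 38.1 and 33.2 CPM in CON muscle (log2 fold change 1.36, SE 0.31, adjusted p = 0.0246). Calcoco1, a receptor for endoplasmic reticulum, had 164, 59.5 and 82.2 CPM in TB muscle against 41.5, 36.5 and 30.8 CPM in CON muscle (log2 fold change 1.49, SE 0.39, adjusted p = 0.0363). None of the 3 overlapped between groups, and all 3 calls were lost without any 1 of the CON libraries; those of Sqstm1 and Calcoco1 were lost without TB 3 as well. Nbr1, a relative of p62, did not pass (log2 fold change 1.15, adjusted p = 0.0632).

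In lung, Sqstm1 had 362, 349.6, 599, 667 and 687 CPM in TB libraries against 549, 509 and 502 CPM in CON libraries. TB 1 and TB 2 lay below the controls and TB 3, TB 4 and TB 5 above, and Sqstm1 did not pass (log2 fold change 0.04, SE 0.26, adjusted p = 0.914). Optn rose, at 27.1 to 83.9 CPM in TB against 23.8 to 24.8 CPM in CON, with TB 1 and TB 2 again nearest to the controls (log2 fold change 1.22, adjusted p = 0.0183). The Optn value was 0.59 on log2(TPM + 1), where it did not pass, and its call was lost without any 1 of the CON lungs. The interaction was -1.58 (adjusted p = 0.0118) for Sqstm1 and -2.02 (adjusted p = 0.00259) for Calcoco1, and it did not pass for Optn.

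Among the mitophagy genes, Bnip3, Bnip3l (also called Nix) and Fundc1 encode receptors in the outer mitochondrial membrane, and Pink1 encodes the kinase that flags damaged mitochondria for Parkin. Bnip3 is a classic target of hypoxia signalling. It had 139.8, 138, 262, 379 and 905 CPM in TB lungs 1 to 5, against 53.1, 52.8 and 53.2 CPM in CON lungs. Every TB lung lay above every control, over a range of more than 6 times, with TB 5 the highest (log2 fold change 2.78, SE 0.66, adjusted p = 0.00566). The value was 2.15 without TB 5 and 1.86 on log2(TPM + 1), and Bnip3 passed in both. In muscle Bnip3 had 733, 353 and 444 CPM in TB against 151, 119 and 53.0 CPM in CON. CON 3 was the lowest library (log2 fold change 2.24, SE 0.45, adjusted p = 0.0177, lost without any 1 of the CON libraries). The effects in the 2 tissues were not shown to differ (interaction 0.55, SE 0.80, adjusted p = 0.648). An antisense gene that overlaps Bnip3, Gm45507, was at 3.02 to 31.7 CPM in TB lung against at most 1.16 CPM in CON lung (adjusted p = 0.00934), and at 31.1 to 206 CPM in TB muscle against 37.7 to 47.5 CPM in CON muscle (adjusted p = 0.184); the strand setting of the counting is not given, so reads of this pair may not be told apart either.

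Pink1 fell in TB lung and rose in TB muscle. It had 54.9, 59.6, 62.1, 83.7 and 68.1 CPM in TB lungs, against 169.9, 185 and 185 CPM in CON lungs. Every TB lung lay far below every CON lung (log2 fold change -1.46, SE 0.16, adjusted p = 7.07e-05), and this was the smallest adjusted p of the 38 genes in lung. In muscle Pink1 had 938, 765 and 819 CPM in TB against 462, 388 and 339 CPM in CON, with no overlap (log2 fold change 1.08, SE 0.28, adjusted p = 0.0351, lost without any 1 of the CON libraries or TB 3). The interaction was -2.54 (SE 0.30, adjusted p = 2.21e-05). Bnip3l had 190.4, 103 and 150.2 CPM in TB muscle against 58.3, 50.9 and 61.7 CPM in CON muscle (log2 fold change 1.37, SE 0.30, adjusted p = 0.0216, lost without any 1 of the CON libraries; 1.99 on log2(TPM + 1), where it did not pass). No TB muscle value of Bnip3l overlapped the controls. In lung Bnip3l did not pass, at 122 to 308 CPM in TB against 169.6 to 175 CPM in CON, and Fundc1 passed in neither tissue.

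Set side by side, 3 genes rose in both tissues (Gabarap, Optn and Bnip3), or 7.89% of the 38, where 3.48% of the 13885 genes tested in both tissues did so. A further 5 fell in lung but rose in muscle (Ulk1, Uvrag, Gabarapl1, Pink1 and Tfeb), or 13.2%, against 1.71% of all genes. The 7 that rose in muscle and did not pass in lung were 18.4%, against 3.42% of all genes. The 8 that rose in lung and did not pass in muscle were 21.1%, against 25.8% of all genes, and the 5 that fell in lung and did not pass in muscle were 13.2%, against 23% of all genes. Atg10 fell in muscle and did not pass in lung (2.08% of all genes), and 9 genes passed in neither tissue (23.7%, against 36.3% of all genes). The difference itself was tested in 1 fit of all 14 libraries, taken as independent and with 1 estimate of spread per gene. Cell type markers also differed between TB and CON libraries of both tissues, and their part in the difference was not tested. The effect was lower in lung than in muscle for 14 of the 38 genes and higher for 1, where 19% and 16.6% of the 19834 genes tested were called lower and higher and 35.6% either way. All 5 genes with opposite calls were among the 14. The median difference was -0.75, against -0.05 for all genes tested. Of the 14, Atg9a was the least firm (-1.10, adjusted p = 0.049) and did not pass in 3 of 9 alternative fits.

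**Figure D4:**
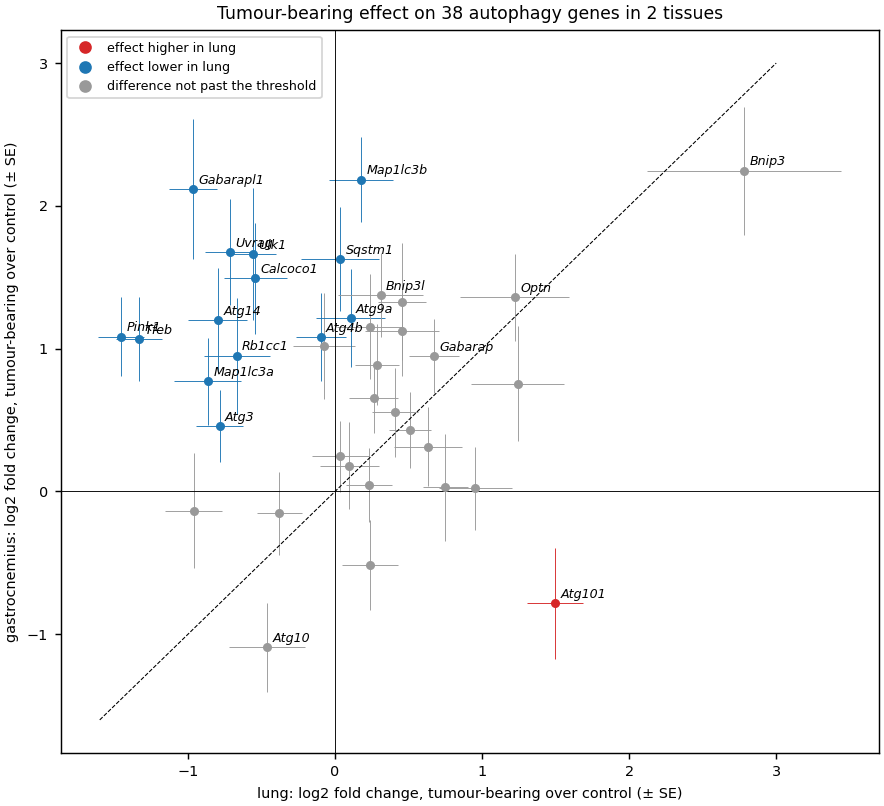
Each point is 1 of the 38 genes, with its log2 fold change of TB over CON in lung on the horizontal axis and in gastrocnemius on the vertical axis, each with its SE; the dashed line marks equal effects. Blue points are the 14 genes whose effect was lower in lung, the red point is Atg101, and Bnip3 stands at the upper right at 2.78 in lung and 2.24 in muscle.

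Levels between genes were compared in TPM. Sqstm1 had the highest level of the 38 genes in muscle (812 ± 216 TPM in TB and 341 ± 145 TPM in CON, SD, n = 3 each) and in CON lung (419 ± 36.0 TPM, n = 3), and Gabarap had it in TB lung (479 ± 56.7 TPM, n = 5). Pink1 ranked 2 in both muscle groups, but 13 in TB lung and 6 in CON lung. Bnip3 ranked 3 in TB lung and 10 in CON lung, and 4 in TB muscle and 5 in CON muscle. Tfeb ranked 36 in TB lung and 27 in CON lung, and 9 in TB muscle and 7 in CON muscle. In TB muscle, the levels of Pink1 (379 ± 84.0 TPM), Gabarap (371 ± 85.2 TPM) and Bnip3 (328 ± 266 TPM), ranks 2 to 4, did not differ beyond their SDs. Between lung CON and muscle CON, 7 of the 38 genes were higher in lung and 13 lower, where 37.9% and 24.6% of all genes were called higher and lower, 62.5% in all. DESeq2 size factors or upper-quartile scaling, with the same test, each gave 2 higher in lung and 14 lower. Limma on log2(TPM + 1), which changes the unit and the test together, called 28 higher in lung and 0 lower, so no direction is given for single genes.

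Other genes of the pathway were counted from 4 lists (core autophagy, receptors, autophagosome fusion and regulators) that hold none of the 38. In TB muscle 19 of 80 tested rose and 1 fell, where 8.53% of all genes tested were called higher and 6.75% lower. The count of genes that rose was 7 of 20 among the receptors and 9 of 29 among the regulators. The naming rule gave Retreg1, a receptor for endoplasmic reticulum, at 374 to 1957 CPM in TB against 81.7 to 168 CPM in CON (log2 fold change 3.34, SE 0.60, adjusted p = 0.0141), and Tex264, another such receptor (1.92, adjusted p = 0.0144). Depp1 rose by 3.37 (adjusted p = 0.00647), and Foxo1, a transcription factor of muscle wasting, rose by 2.47 (adjusted p = 0.00673), at 79.5 to 158 CPM in TB against 18.4 to 23.6 CPM in CON. Zfyve1, which marks sites where autophagosomes form, rose by 2.003 (adjusted p = 0.0177), and the fusion genes Vps33a and Snap29 by 1.55 and 1.39 (adjusted p = 0.0228 and 0.0437).

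In TB lung 21 of 83 of these genes rose and 21 fell, where 30.4% of all genes tested were called higher and 29.3% lower, so these counts do not set the pathway apart. Among the 30 regulators 4 rose and 12 fell. Atg9b, the second ATG9 gene, had 57.9 to 293 CPM in TB lungs, against 0.472 to 0.748 CPM in CON lungs (log2 fold change 8.09, SE 0.69, adjusted p = 2.21e-05). Nos3, which overlaps it on the other strand, moved the opposite way (3.39 to 5.7 CPM in TB against 29.8 to 31.5 CPM in CON, adjusted p = 8.92e-06). Vmp1, which acts in membrane supply, rose by 1.77 (adjusted p = 5.31e-05), Phb2, an inner-membrane mitophagy receptor, by 2.02 (adjusted p = 1.2e-05), and Vps16, a tethering subunit, by 1.11 (adjusted p = 0.000391). The scaffold gene Wdfy3, the fusion adaptor Plekhm1 and the regulators Trp53inp2 and Sesn1 fell by 1.35, 0.74, 1.69 and 2.66 on the log2 scale (adjusted p = 4.15e-05, 0.00208, 9.5e-06 and 2.4e-05).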

How the data were processed

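RNA of 14 libraries (3 or 5 per group) was measured by sequencing of 100-base reads from a strand-preserving kit, per the labels. Trim Galore, STAR 2.7.9a and RSEM 1.3.3 are named in the submitters' processing notes; their settings, strand option and genome build are not stated in the sources used here. The authors deposited RSEM expected counts per gene, which need not be whole, together with TPM and an effective length in bases; a read that fits several genes is shared out among them, which makes near-identical copies uncertain. Symbols were matched for 52083 of 55416 identifiers.

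Expected counts were rounded, and edgeR 4.0.16 in R 4.3.3 fitted lung and muscle separately (filterByExpr, TMM, glmQLFit, glmQLFTest), with Benjamini-Hochberg adjustment over all genes and a threshold of 0.05. SE is the absolute log2 fold change divided by the square root of F. The interaction and the contrast between CON tissues came from 1 fit of all 14 libraries, with 1 estimate of spread per gene and no pairing of tissues. The fits were tested on simulated data. Replicates differed by more than sampling noise, so none was merged. Alternatives used DESeq2 size factors, upper-quartile scaling, DESeq2 1.42.0, limma 3.58.1 on log2(TPM + 1) or log2(TPM + 0.1), a filter at 1 CPM on average, no filter, a robust fit, a replicate block, all 14 libraries in 1 fit, the 6 CON libraries alone (for the contrast between tissues), leaving out each library and, chosen after seeing the data, leaving out mitochondrial genes.

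The 38 genes and the other lists were chosen with earlier results of these data known. By the naming rule, values of every library are given for at most 12 genes per tissue with the smallest p among those that passed, and for Map1lc3b, Bnip3, Sqstm1, Becn1, Ulk1, Atg7, Pink1 and Tfeb; of each other pathway list the 2 with the smallest p are named. Counting error alone allows up to 3 counts behind a value of 0, or 0.0491 to 0.0924 CPM. Start regions came from RefSeq (GRCm38.p6), and overlapping genes from GENCODE M21.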

Additional observations from a re-analysis of the deposited data

Results flagged for a closer look

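By edgeR's interaction test, the log2 fold change of TB over CON differed between lung and muscle for 15 of the 38 genes. Of all genes tested, 35.6% were called in that test, so the count itself does not set the list apart. TB lungs also differed from CON lungs in cell type markers, whose part in these differences was not tested. Given as the log2 effect in lung minus that in muscle, the difference was 2.25 for Atg101, -2.20 for Ulk1 and -1.61 for Rb1cc1 in the initiation complex. It was -1.98 for Atg14 and -2.38 for Uvrag in the lipid kinase complex, -1.10 for Atg9a, and -1.24 for Atg3 and -1.17 for Atg4b among the conjugation enzymes. In the ATG8 family it was -1.63 for Map1lc3a, -2.0 for Map1lc3b and -3.07 for Gabarapl1. It was -1.58 for Sqstm1, -2.02 for Calcoco1, -2.54 for Pink1 and -2.41 for Tfeb. Of these 15, Ulk1, Uvrag, Gabarapl1, Pink1 and Tfeb had called effects of opposite direction in the 2 tissues. The value for Rb1cc1 was -1.01 and that for Gabarapl1 -2.47 without TB 1 of muscle, and that for Atg101 was 2.88 without TB 2 of muscle and 1.66 on log2(TPM + 1).

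A library far from the other 4 was found in TB lung for 2 of the 38 genes, by the gap to its nearest neighbour over the range of the group; chance alone flags about 1 in 20 groups. Ulk1 had 53.0 CPM in TB 5, above the other TB lungs and below all CON lungs. Nbr1 had 85.3 CPM in TB 2, below the other TB lungs and below all CON lungs.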

How the results depend on the processing

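The few libraries per group limit these results, no fit at reduced depth was made, and the cause of the changes below was not tested. In muscle the 15 genes that rose stayed positive and Atg10 negative in every fit, but the number called higher was 8 with upper-quartile scaling, 1 with limma on log2(TPM + 1) and 3 on log2(TPM + 0.1), and both limma fits called 0 lower. All genes past the threshold numbered 2196, and 3657 with DESeq2, 415 and 676 with limma on the 2 TPM scales, 4031 without a filter and 3459 in the fit of 14 libraries. Upper-quartile scaling called 760 genes higher and 1079 lower, and log2(TPM + 1) 157 and 258. Without single libraries, all genes past the threshold ran from 106 to 4513, the autophagy genes called higher from 0 to 22 and those called lower from 0 to 2. In lung, both limma fits called 2 higher (median -0.37 and -0.38), log2(TPM + 1) split all calls 3594 and 7994, and leaving out libraries gave 6 to 12 higher. In the interaction, DESeq2 size factors, upper-quartile scaling and DESeq2 each called 2 higher, and leaving out libraries gave 1 to 2. Between CON tissues, those settings gave 2, 2 and 4 higher in lung, limma on log2(TPM + 1) gave 28 higher and 0 lower, and leaving out libraries gave 2 to 8 higher. Signs turned for values that had not passed: Becn1 in muscle (-0.17 with upper-quartile scaling, -0.011 with a mean of at least 1 CPM, -0.014 in the fit of 14 libraries, -0.075 to 0.20 without single libraries) and in lung (-0.26 on both TPM scales); Sqstm1 in lung (-0.0032 with DESeq2 size factors and with DESeq2, -0.062 with upper-quartile scaling, -0.35 on both TPM scales, -0.0053 with a mean of at least 1 CPM, -0.030 in the fit of 14 libraries, -0.041 to 0.18 without single libraries); and, in the interaction on log2(TPM + 1), Becn1 (-0.56), Atg7 (-0.12) and Bnip3 (-0.65), with -0.061 to 0.16 for Atg7 and -0.030 to 0.89 for Bnip3 without single libraries. Of genes that had passed in lung, Pik3c3 (-3.8e-05 and -0.0011) and Ambra1 (-0.022 and -0.024) turned on the TPM scales. Same-numbered samples deviated together for numbers 1 and 3 in muscle, not for 2, and hardly in lung (r = 0.36, -0.05 and 0.37 in muscle and 0.04, 0.06 and -0.00083 in lung). Muscle pairs with different numbers had r from -0.41 to 0.07. A link between same-numbered libraries, such as a batch, is not in the labels and was not tested further. A replicate block gave 3303 genes in muscle, with 18 autophagy genes higher, and 6 higher and 11 lower in lung. Lung TB 4 and TB 5 have no same-numbered CON library. Under the block, the lung difference therefore rests on TB 1, TB 2 and TB 3 alone. Under it Map1lc3b and Sqstm1 in lung stood at -0.12 and -0.30, Bnip3 in lung at 1.69, and the Bnip3 interaction at -0.61.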

Other observations

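The deposited effective length of a gene is an average over its transcripts weighted by their estimated abundance, so it moves when the transcript mix moves. It differed between groups for some of the 38 genes, chosen here after their values were seen. In muscle it was 1455 to 2163 bases in TB and 2531 to 2976 bases in CON for Bnip3l, 1531 to 2992 bases in TB and 3304 to 3791 bases in CON for Atg4b, and 973 to 1709 bases in TB and 880.1 to 952 bases in CON for Sqstm1. In lung it was 1602 to 1987 bases in TB and 2166 to 2212 bases in CON for Map1lc3b, 2203 to 3385 bases in TB and 3539 to 3736 bases in CON for Rb1cc1, and 2087 to 2815 bases in TB and 3009 to 3335 bases in CON for Pik3r4. Ranges of TB and CON did not overlap in these 6 genes. Other genes of the 38 also had ranges that did not overlap, such as Ulk1 and Calcoco1 in muscle and Uvrag in lung. Some of these shifts were small. Atg5 in muscle had 2131 to 2145 bases in TB and 2150 to 2159 bases in CON, so a lack of overlap need not mean another transcript mix. The share of such genes among all genes was not counted, so the 6 are examples only. No test was made on effective lengths, and single transcripts were not analysed here.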
